A study of Mus musculus with 6 samples.

Results

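*Nat8l* and 6 genes around N-acetylaspartate were followed through 6 RNA-seq libraries of mouse osteoclasts, the multinucleated cells of the monocyte lineage that resorb bone. The 7 genes were *Nat8l*, *Aspa*, *Slc25a12*, *Slc25a13*, *Asns*, *Acss1* and *Acss2*, picked by symbol from 23204 genes in the count table. *Nat8l* led to the choice because it was among the 10 genes, of 14040 tested, with an adjusted p under 0.05 between the genotypes (adjusted p = 0.0438, edgeR quasi-likelihood test), and the other 6 were added for their place in its metabolism. The genotype values of all 7 are therefore given as a description, and no test of them is drawn on. Osteoclasts were grown from bone marrow of C57BL/6 mice, by 2 days in the growth factor M-CSF and then in M-CSF with RANKL, the ligand that makes these precursors fuse into osteoclasts. The 3 wild-type libraries are called 1, 4 and 6 after the number that opens their column names. The 3 of genotype Tet2Rank–/–; Tet3aRank+/–, which column names give as Tet2KOTet3Het, are called 2, 3 and 5, or mutant as labelled. TET2 and TET3 oxidise methylated cytosine in DNA. The sources used here do not say what Rank stands for, in which cells or over which exons the alleles are deleted, or how old the mice were. The labels list females and males in both genotypes, with nothing that ties either to the columns, and do not say that the cultures came from separate animals, so the spread behind a p-value is that among these libraries and may be technical.

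N-acetylaspartate is made from aspartate and acetyl-CoA by the enzyme that *Nat8l* encodes, and it is best known as an abundant metabolite of neurons. The enzyme encoded by *Aspa*, aspartoacylase, splits it back into aspartate and acetate, mainly in oligodendrocytes, where the acetate can feed lipid synthesis. The carriers encoded by *Slc25a12* (aralar) and *Slc25a13* (citrin) bring aspartate out of mitochondria in exchange for glutamate, asparagine synthetase (*Asns*) uses aspartate, and the acetyl-CoA synthetases of mitochondria (*Acss1*) and of cytosol and nucleus (*Acss2*) turn acetate back into acetyl-CoA.

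Total counts lay between 8794973 and 14267135 per library, with the genotypes overlapping. *Tet2* gave 615, 1045 and 989 raw counts (libraries 1, 4 and 6) against 831, 447 and 702 (2, 3 and 5). Scaled to a common library total, its mutant libraries all lay below its wild-type libraries, as for 16.9% of all genes tested. The log2 fold change was -0.57 (SE 0.120). *Tet3* had 0.23 (SE 0.117), not lower, and with the deleted exons unknown these counts over whole genes are a weak check of the labels. Columns of libraries 5 and 6 carry a second number in their names while the others lack it. This division holds both genotypes on either side and is referred to as the naming batch. The summed level of 10 osteoclast markers was 15140 to 39700 CPM (counts scaled to a common library total, with TMM factors) in wild-type and 2966 to 12370 CPM in mutant libraries, and that of 10 macrophage markers was 5810 to 7311 and 9022 to 9651 CPM. Neither pair of ranges overlapped, and 7 of the 10 osteoclast genes lay lower and 6 of the 10 macrophage genes higher without overlap, as did 16.9% and 9.91% of all genes tested. With genotype alone edgeR called 0 of either list, and with the naming batch added 7 osteoclast genes fell and 5 macrophage genes rose, against 5.6% and 3.08% of all genes. In such bulk samples, fewer cells of a type and less RNA per cell cannot be told apart. Libraries 4, 2 and 3 also stood apart by neuronal genes: *Syt1*, a synaptic vesicle gene, gave 643, 499 and 196 counts there, against 63, 2 and 0 in libraries 1, 6 and 5.

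*Nat8l* (ENSMUSG00000048142, chromosome 5, 33995984 to 34005916, plus strand, mm10) was about 3 times as high in the mutant libraries. It stood at 8.98, 8.60 and 10.4 CPM in libraries 1, 4 and 6 and at 28.2, 24.9 and 30.5 CPM in libraries 2, 3 and 5. Every mutant library lay above every wild-type library, and the lowest mutant value was more than double the highest wild-type value. The means were 27.8 CPM ± 2.84 (SD, n = 3) against 9.33 CPM ± 0.963 (SD, n = 3), and the log2 fold change was 1.58 (SE 0.154). The coefficient of variation was 10.3% among wild-type and 10.2% among mutant libraries, where counting alone would give 9.71% and 5.33% at the mean counts of 1 library. The naming batch made little difference: libraries 1 to 4 alone gave a log2 difference of 1.59, and libraries 5 and 6 gave 1.55. Leaving out each library in turn, it ranged from 1.5 to 1.68, with edgeR adjusted p-values from 0.107 to 0.204, so that the call itself was lost each time.

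Within a genotype, *Nat8l* and the macrophage sum both spanned narrower ranges than the osteoclast sum. Among wild-type libraries the osteoclast sum was 18420, 15140 and 39700 CPM in libraries 1, 4 and 6, while *Nat8l* stayed between 8.60 and 10.4 CPM in the same order. Among mutant libraries the osteoclast sum was 2966, 8448 and 12370 CPM in libraries 2, 3 and 5, where *Nat8l* was lowest in library 3 and highest in library 5. The macrophage sum was 7311, 5810 and 5908 CPM in libraries 1, 4 and 6 and 9439, 9022 and 9651 CPM in libraries 2, 3 and 5. The summed level of 7 neuronal genes was 17.0, 94.5 and 5.61 CPM in libraries 1, 4 and 6 and 71.6, 42.8 and 8.86 CPM in libraries 2, 3 and 5, and overlapped between the genotypes. *Syt1* and *Snap25*, both synaptic genes, gave 0 and 4 counts in library 5, while *Syn1*, another synaptic gene, gave 108 there and 37 to 101 in the others, and *Rbfox3*, a neuronal nuclear gene, gave 19, 3 and 1 mutant counts (libraries 2, 3 and 5) and 0 in wild type. Brown fat also expresses *Nat8l*. Among 7 adipocyte markers measured, 5 (*Adipoq*, *Plin1*, *Cfd*, *Ucp1* and *Cidec*) stayed under 10 counts in every library, *Fabp4* gave 202 to 472, and *Cidea*, a gene of brown fat, gave 100, 144 and 32 counts in libraries 4, 2 and 3, 8 in library 1 and 0 in the other two. The summed adipocyte level was 24.2 to 29.4 CPM in wild-type and 24.2 to 36.2 CPM in mutant libraries. Between the genotypes, the osteoclast sum lay lower and the macrophage sum higher where *Nat8l* was higher, and the part of any of these lists in its difference was not tested.

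*Aspa* (ENSMUSG00000020774, chromosome 11, 73304992 to 73329596, minus strand) was near the limit of detection. It gave 8, 1 and 4 counts in libraries 1, 4 and 6 and 6, 4 and 11 counts in libraries 2, 3 and 5, and the filter on low counts left it out of the test. The genotypes overlapped. Summed over libraries, 13 counts gave 0.382 CPM of the raw total (exact Poisson 95% interval 0.204 to 0.654) in wild type and 21 counts gave 0.558 CPM (0.345 to 0.853) in mutant libraries. The intervals cover counting error only, and a difference was not detectable at this depth. The transcript of the enzyme that splits N-acetylaspartate was scarce in both genotypes, while that of the enzyme that makes it gave 77 to 410 counts in every library. Of 6 oligodendrocyte markers in the table, *Mobp* had at most 1 count and *Sox10* was at 0 or 1 outside library 4, which had 14.

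**Figure D1:**
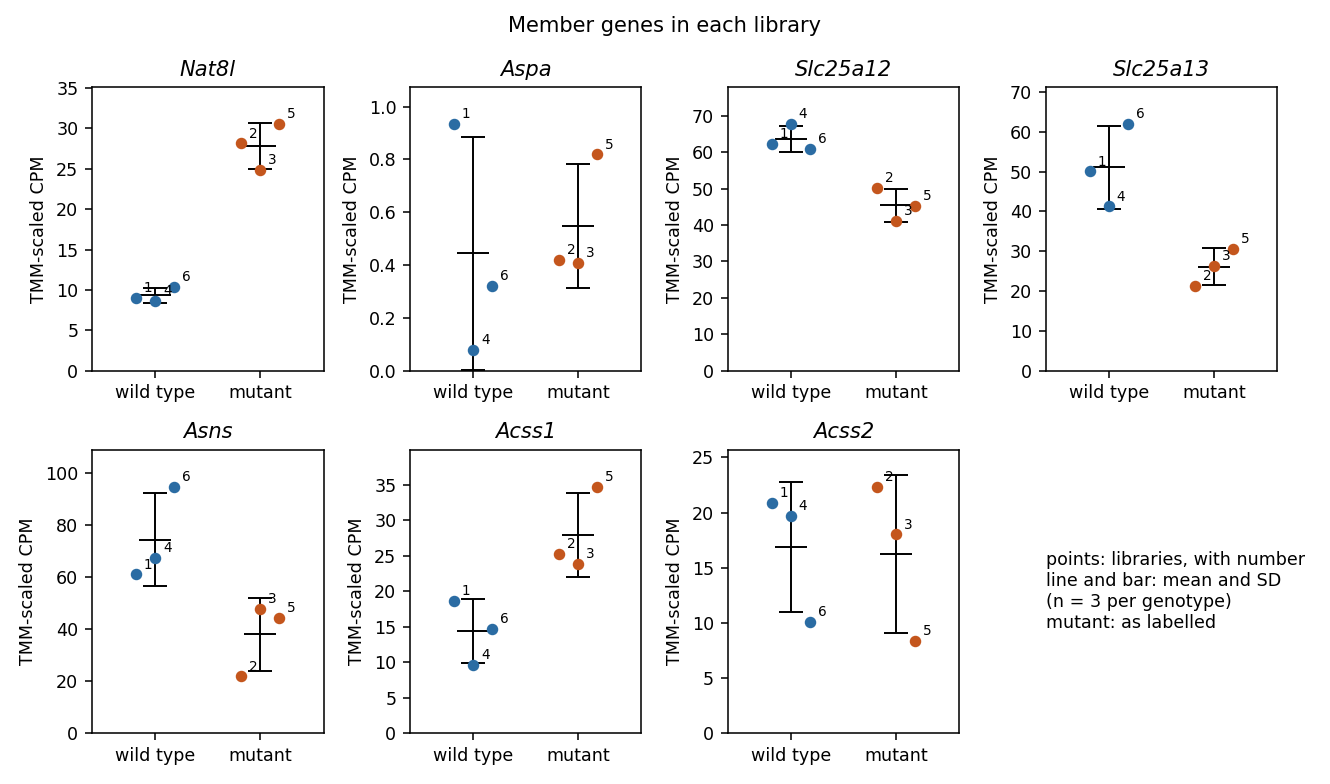
TMM-scaled CPM of the 7 genes in each library (points with library number; line and bar are mean and SD, n = 3 per genotype; axes start at 0). *Nat8l* and *Acss1* lie higher and *Slc25a12*, *Slc25a13* and *Asns* lower in all 3 mutant libraries, and *Aspa* and *Acss2* overlap between the genotypes.

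The mitochondrial aspartate carriers both lay lower in the mutant libraries. *Slc25a13* (ENSMUSG00000015112, chromosome 6, 6041218 to 6217173, minus strand) stood at 50.04, 41.3 and 61.9 CPM in libraries 1, 4 and 6 and at 21.3, 26.3 and 30.6 CPM in libraries 2, 3 and 5. No value of one genotype reached the other, and the mutant mean was 51.0% of wild type, a log2 fold change of -0.97 (SE 0.199). *Slc25a12* (ENSMUSG00000027010, chromosome 2, 71271063 to 71367749, minus strand) stood at 62.3, 67.7 and 60.9 CPM in wild-type libraries and at 50.1, 41.1 and 45.3 CPM in libraries 2, 3 and 5. It too did not overlap, at 71.5% of wild type and a log2 fold change of -0.48 (SE 0.109). Its wild-type libraries were the most alike of the 7 genes, with a coefficient of variation of 5.61%. Counting alone would give 3.72% at its mean count, against 9.71% for *Nat8l*, and this order was not corrected for counting error.

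*Asns* (ENSMUSG00000029752, chromosome 6, 7675169 to 7693254, minus strand) stood at 61.0, 67.2 and 94.6 CPM in libraries 1, 4 and 6 and at 21.9, 47.8 and 44.3 CPM in libraries 2, 3 and 5. The genotypes did not overlap, with library 6 far above the others and library 2 far below. The mutant mean was 51.1% of wild type, and the log2 fold change of -0.97 (SE 0.322) became -0.66 without library 2 and -0.74 without library 6. *Asns* is a target of the amino acid response, the ATF4-driven programme that cells turn on when amino acids are short.

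The acetyl-CoA synthetases differed from each other. *Acss1* (ENSMUSG00000027452, chromosome 2, 150618105 to 150668500, minus strand) stood at 18.7, 9.68 and 14.7 CPM in libraries 1, 4 and 6 and at 25.2, 23.8 and 34.7 CPM in libraries 2, 3 and 5. All mutant libraries lay above all wild-type libraries, at 195% of the wild-type mean and a log2 fold change of 0.97 (SE 0.276). *Acss2* (ENSMUSG00000027605, chromosome 2, 155517948 to 155585724, plus strand) stood at 20.9, 19.7 and 10.1 CPM in wild-type and at 22.3, 18.0 and 8.34 CPM in mutant libraries. Its genotypes overlapped, with a log2 fold change of -0.05 (SE 0.428), and its low values were those of libraries 6 and 5. The sign turned when library 1, 4 or 5 was left out, to between 0.12 and 0.26. The naming batch, which had no part in choosing the genes, was tested as a term beside genotype: *Acss2* was lower in libraries 5 and 6 by a log2 difference of -1.14 (SE 0.188, edgeR adjusted p = 0.0443), as 2.29% of all genes differed between these batches in either direction. The other 5 genes tested did not pass that test, with edgeR adjusted p-values from 0.150 for *Slc25a13* to 0.823 for *Slc25a12*.

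Within libraries 1 to 4 and then between libraries 5 and 6, the log2 difference between genotypes kept its sign for each gene tested: -0.52 and -0.43 for *Slc25a12*, -0.94 and -1.02 for *Slc25a13*, -0.99 and -1.09 for *Asns*, 0.87 and 1.24 for *Acss1*, and -0.01 and -0.28 for *Acss2*.

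Counts of *Acss2* may hold reads of its neighbours. Its annotated exons share 197 bases with *Ggt7* and 395 bases with *Gss*, both on the opposite strand, out of 10163 exon bases in GENCODE M21. The libraries were stranded, but the sources used here do not give the strand setting of the counting. *Ggt7* gave 37, 275 and 28 wild-type counts (libraries 1, 4 and 6) and 369, 93 and 31 mutant counts (2, 3 and 5), where *Acss2* gave 179, 254 and 126 and then 319, 177 and 112. The highest raw counts of both genes fell in libraries 2 and 4. *Gss* gave 334, 487 and 714 wild-type and 353, 372 and 488 mutant counts in the same order, and was highest in library 6, where *Acss2* was low. Scaled for depth, *Acss2* stood at 20.9 CPM in library 1 and 19.7 CPM in library 4, where *Ggt7* stood at 4.32 and 21.3 CPM. The part of either neighbour in the counts of *Acss2* was not tested.

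Of the 7 genes, 6 were tested and 1 (*Nat8l*) was past the threshold with genotype alone, where 0.0712% of all genes tested were (0.0499% higher and 0.0214% lower). With the naming batch as a term, *Nat8l* and *Slc25a13* were past it (8.68% of all genes), and DESeq2 placed *Nat8l*, *Slc25a12*, *Slc25a13* and *Acss1* there (10.3% of all genes). The libraries of 5 of the 7 did not overlap between genotypes, as for 26.8% of all genes tested. Since the same comparison led to the genes, nothing is read from these counts.

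Per length, *Asns* had the highest level of the 7 in both genotypes and *Aspa* the lowest. As RPKM (CPM per kilobase of annotated exon), the wild-type order was *Asns* at 27.2 ± 6.54, *Slc25a13* at 13.5 ± 2.72, *Slc25a12* at 8.67 ± 0.486, *Acss1* at 3.47 ± 1.09, *Acss2* at 1.66 ± 0.581, *Nat8l* at 1.40 ± 0.144 and *Aspa* at 0.0745 ± 0.0741 (SD, n = 3 each). Of the neighbours in this order, *Acss2* and *Nat8l* overlapped over the libraries and the others did not. In the mutant libraries it was *Asns* at 13.9 ± 5.15, *Slc25a13* at 6.86 ± 1.23, *Acss1* at 6.76 ± 1.43, *Slc25a12* at 6.20 ± 0.618, *Nat8l* at 4.17 ± 0.426, *Acss2* at 1.598 ± 0.706 and *Aspa* at 0.0922 ± 0.0393 RPKM (SD, n = 3 each). There the first 4 overlapped each neighbour, and *Nat8l* stood clear of *Slc25a12* above it and *Acss2* below it. In the whole transcriptome, the wild-type mean of *Nat8l* was above that of 24.4% of genes tested and the mutant mean above that of 45.1%, on the same scale. With the longest transcript as the length, *Acss2*, whose exon union is far longer than any of its transcripts, passed *Acss1* in wild type, and in the mutant libraries it passed *Nat8l*; the other genes kept their rank.

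**Figure D2:**
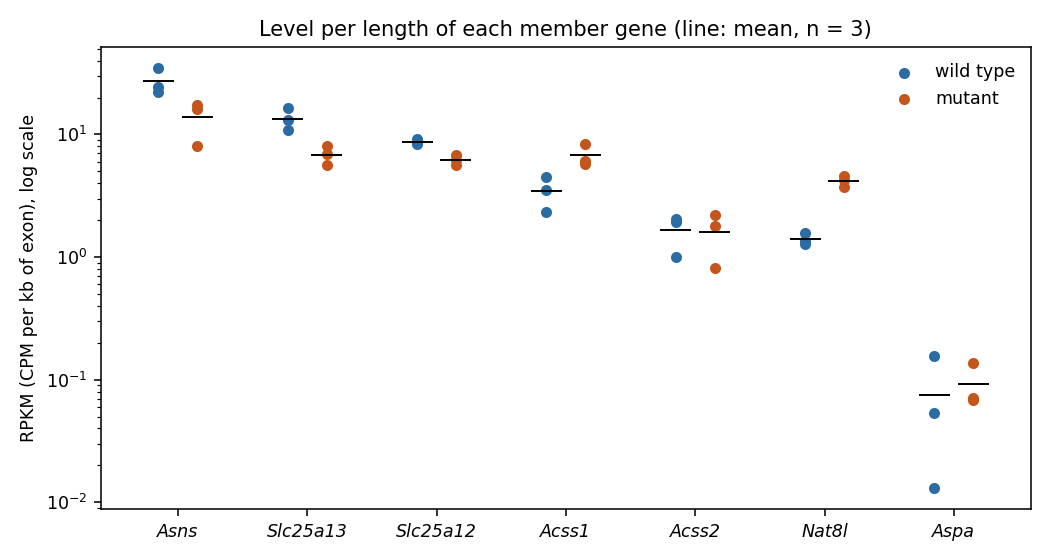
RPKM on a log axis of each gene (points are libraries, lines are means, n = 3 per genotype), ordered by the wild-type mean. The genes spread widely in wild type, from 27.2 RPKM for *Asns* to 0.0745 for *Aspa*, while *Slc25a13*, *Slc25a12* and *Acss1* draw together between 6.20 and 6.86 RPKM in the mutant libraries.

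Within each pair of related enzymes or carriers, the balance of counts shifted between libraries by more than counting error. *Acss1* held 47.2% (95% Wilson interval 41.9 to 52.5), 33.0% (28.4 to 37.9) and 59.2% (53.7 to 64.6) of the counts of *Acss1* and *Acss2* in libraries 1, 4 and 6. In libraries 2, 3 and 5 it held 53.0% (49.3 to 56.8), 56.9% (52.1 to 61.6) and 80.6% (77.2 to 83.6). Library 5 stood above all others, and the genotypes overlapped through library 6. *Slc25a13* held 44.6% (41.4 to 47.7), 37.9% (35.4 to 40.5) and 50.4% (47.9 to 52.9) of the counts of the carrier pair in wild-type libraries, and 29.8% (27.1 to 32.7), 39.0% (35.4 to 42.8) and 40.3% (37.4 to 43.4) in libraries 2, 3 and 5. Library 2 was lowest and library 6 highest, and the intervals of libraries 3, 4 and 5 overlapped one another.

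**Figure D3:**
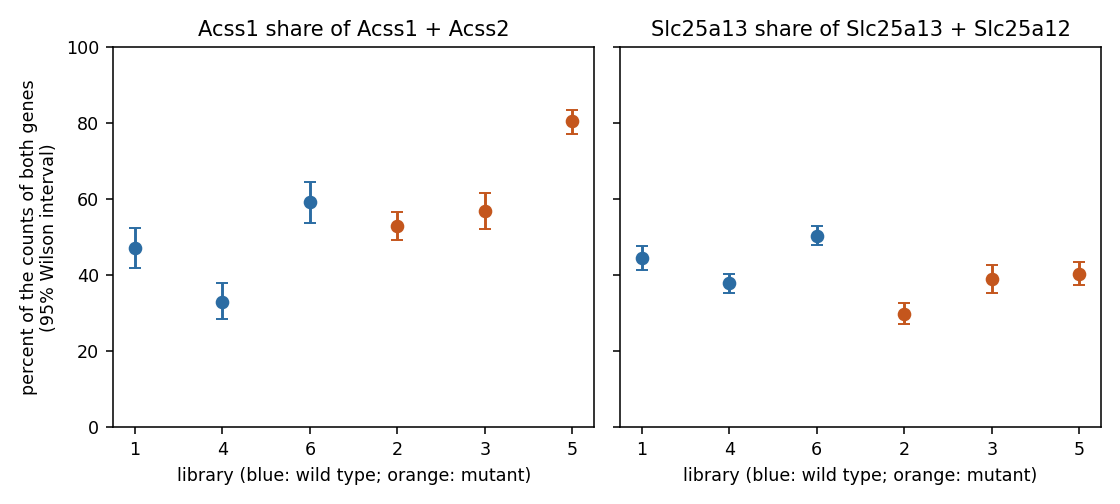
Share of *Acss1* in the counts of *Acss1* and *Acss2* and of *Slc25a13* in those of *Slc25a13* and *Slc25a12*, in percent, by library (bars are 95% Wilson intervals, counting error only). The share of *Acss1* was 80.6% in library 5 and at most 59.2% elsewhere.

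Promoter windows of *Acss1*, *Aspa* and *Asns*, 300 bases each, are shown, taken from RefSeq (GRCm38.p6), whose table matched 6 of the 7 genes, *Aspa*, *Slc25a12*, *Slc25a13*, *Asns*, *Acss1* and *Acss2*. Each runs 5′ to 3′ on the gene's own strand, from 250 bases before the annotated start to 50 after. *Acss1* and *Aspa* are shown because they hold the most and the fewest CG dinucleotides of the 6, the sites whose methylation TET enzymes act on, and capitals mark each CG. *Asns* is shown for TGATGAAAC, known from this promoter as a site of the amino acid response, and capitals mark it.
Acss1: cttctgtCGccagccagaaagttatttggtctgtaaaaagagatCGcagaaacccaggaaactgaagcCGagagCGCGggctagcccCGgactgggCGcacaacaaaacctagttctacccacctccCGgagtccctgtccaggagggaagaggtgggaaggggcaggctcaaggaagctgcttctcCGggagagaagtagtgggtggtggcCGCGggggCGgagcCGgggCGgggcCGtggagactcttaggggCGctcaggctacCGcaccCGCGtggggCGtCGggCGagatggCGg
Aspa: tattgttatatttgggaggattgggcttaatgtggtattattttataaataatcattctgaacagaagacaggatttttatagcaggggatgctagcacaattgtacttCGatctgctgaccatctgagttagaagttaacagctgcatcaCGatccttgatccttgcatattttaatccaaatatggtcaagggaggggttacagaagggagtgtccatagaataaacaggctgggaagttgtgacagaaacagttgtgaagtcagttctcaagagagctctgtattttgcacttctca
Asns: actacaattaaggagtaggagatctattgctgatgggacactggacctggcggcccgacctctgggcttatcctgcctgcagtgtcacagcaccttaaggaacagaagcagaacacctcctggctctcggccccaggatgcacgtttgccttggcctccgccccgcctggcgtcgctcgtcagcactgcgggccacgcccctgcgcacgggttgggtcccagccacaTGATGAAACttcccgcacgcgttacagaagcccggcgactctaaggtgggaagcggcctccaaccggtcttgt
The windows lie on the minus strand at chr2:150668191-150668490, chr11:73324588-73324887 and chr6:7693160-7693459. *Acss1* held 23 CG and *Aspa* 2, with 12 in *Slc25a12*, 17 in *Slc25a13* and 20 each in *Asns* and *Acss2*. Over 32851 windows of this length the median was 7 (quartiles 3 and 20). TGATGAAAC, searched after the windows had been read, was in *Asns* alone of the 6 and in 0.247% of all windows. Motifs were searched on both strands, and TGATGNAAT, a related amino acid response motif, was in 0 of the 6 and in 0.965% of all windows. TGANTCA, the AP-1 motif, was in *Slc25a13* alone and in 7.81% of all windows. These are matches of letters, and DNA methylation was not analysed here.

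Of 11 genes in the table that handle N-acetylaspartate or its peptide with glutamate, N-acetylaspartylglutamate, 7 were tested. With genotype alone, *Nat8l* was past the edgeR threshold and the other 6 were not. Of these 6, *Slc13a3* and *Acy1* lay lower in all mutant libraries, where 16.9% of all genes did, and the other 4 overlapped. *Slc13a3*, a sodium-coupled dicarboxylate carrier that takes up N-acetylaspartate, stood at 30.7 CPM ± 14.5 in wild-type and 8.99 CPM ± 3.46 in mutant libraries (SD, n = 3 each). Its 3 mutant libraries lay below every wild-type library, and the log2 difference was -1.77 (SE 0.440). The edgeR adjusted p was 0.111, or 0.0213 once the naming batch was a term. *Acy1*, which encodes an aminoacylase of other N-acetylated amino acids, stood at 28.8 CPM ± 4.51 and 14.4 CPM ± 3.89 (SD, n = 3 each), a log2 difference of -1.0004 (SE 0.229). Its edgeR adjusted p was 0.1001, or 0.0450 with that term. *Slc17a5*, which encodes the lysosomal carrier sialin, overlapped between the genotypes, at 69.9 ± 16.4 and 65.9 ± 16.3 CPM (SD, n = 3 each).

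*Rimklb*, *Rimkla* and *Acss3* were counted mostly in the libraries with neuronal counts. *Rimklb*, a synthetase of N-acetylaspartylglutamate, gave 38, 69 and 24 counts in libraries 4, 2 and 3 and 0 in libraries 1, 6 and 5. *Rimkla*, the other synthetase, gave 5, 11 and 14 counts there and 0, 1 and 0 in the rest. *Acss3*, a further acyl-CoA synthetase gene, gave 23, 51 and 27 counts in the former and 4, 0 and 2 in the latter. *Folh1*, which encodes a peptidase that splits the peptide, had 10 counts in library 4 and at most 3 elsewhere. The part of the neuronal signal in these counts was not tested. Within the NAT8 family, *Nat8l* was the most counted of 7 members in the table; *Nat14*, with 6 to 42 counts, *Nat8f4*, with 6 to 49, and *Nat8f1*, with 15 to 41, were also tested and overlapped between the genotypes, and *Nat8*, *Nat8f2* and *Nat8f3* had at most 3 counts in any library.

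Across all 6 pathway lists, those of N-acetylaspartate and the NAT8 family included, 76 genes other than the 7 were tested, and edgeR called 0 of them with genotype alone. At an unadjusted p under 0.05 there were 22 (28.9%, against 19.6% of all genes), and the fit that holds the naming batch had 1 that rose and 10 that fell, against 3.08% and 5.6% of all genes. DESeq2 called 1 higher and 13 lower, against 4.84% and 5.48% of all genes it adjusted. The libraries of 32 lay lower and of 2 higher without overlap, where 16.9% and 9.91% of all genes did. Their median log2 fold change was -0.27, and that of all genes -0.03. Without libraries 2 and 4, those with the most neuronal counts, edgeR called 0 of all genes tested. That fit can therefore say nothing about these lists.

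In the malate-aspartate shuttle, which moves reducing power into mitochondria through aspartate and malate, 13 of 17 listed genes were tested, with a median log2 fold change of -0.34 (*Slc25a12* and *Slc25a13* included). Of the 13, 8 lay lower and 1 higher without overlap, against 16.9% and 9.91% of all genes. With genotype alone edgeR called 0, and with the naming batch added 3 fell and 0 rose, against 5.6% and 3.08% of all genes. DESeq2 called 4 lower and 0 higher, against 5.48% and 4.84% of the genes it adjusted. Without *Slc25a12* and *Slc25a13*, 11 were tested, of which 2 fell with the naming batch added and 2 in DESeq2. *Mdh1*, the cytosolic malate dehydrogenase gene, stood at 595 CPM ± 159 in wild-type and 263 CPM ± 53.1 in mutant libraries (SD, n = 3 each), a log2 difference of -1.18 (SE 0.243). The edgeR adjusted p was 0.0917, or 0.0159 once the naming batch was a term. *Got2*, the mitochondrial aspartate aminotransferase gene that makes aspartate, stood at 137 ± 4.0 and 89.9 ± 11.3 CPM (SD, n = 3 each; edgeR adjusted p = 0.0837, or 0.0220 with that term). *Mdh2*, its malate dehydrogenase partner in mitochondria, stood at 588 ± 250 and 317 ± 121 CPM (SD, n = 3 each). *Ucp2*, a mitochondrial carrier gene linked to aspartate export, was alike at 904 ± 40.1 and 937 ± 42.9 CPM (SD, n = 3 each), and *Slc25a22*, a mitochondrial glutamate carrier gene, was the 1 listed gene whose mutant libraries all lay above, with a log2 fold change of 0.25 (SE 0.140); it was picked after its values were seen.

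Users of aspartate and asparagine leaned the same way, with log2 fold changes from -0.97 for *Asns* to -0.01 for *Cad* (SE 0.442). With genotype alone, all 15 tested, *Asns* included, were below 0 (median -0.30), against 53.2% of all genes. *Ass1* turned to 0.04 (SE 0.532) with the naming batch as a term, and *Cad* to 0.02 (SE 0.449) in DESeq2. Without overlap, 8 lay lower, against 16.9%. DESeq2 called 0, as did edgeR under either fit. At an unadjusted edgeR p under 0.05 there were 3, where 19.6% of all genes were. *Nars*, the asparaginyl-tRNA synthetase gene, stood at 364 ± 44.8 and 311 ± 26.1 CPM, and *Paics*, of purine synthesis, at 150 ± 11.4 and 128 ± 3.44 CPM (SD, n = 3 each, wild type first).

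Among 22 tested genes of acetate and acetyl-CoA, 18 lay below 0 on the log2 scale (median -0.32), against 53.2% of all genes, and *Acss1* was among the 4 above. In the edgeR fit that holds the naming batch 6 fell and 0 rose, against 5.6% and 3.08% of all genes. They were *Pdhb*, *Pdha1* and *Dld*, which encode subunits of pyruvate dehydrogenase, the mitochondrial complex that makes acetyl-CoA from pyruvate, and *Cs*, *Acat1* and *Slc16a7*. Among the same complex, *Dlat* and *Pdhx* did not pass (edgeR adjusted p = 0.0575 and 0.0830 in that fit). *Pdhb* stood at 247 CPM ± 47.8 in wild-type and 116 CPM ± 18.6 in mutant libraries (SD, n = 3 each), a log2 difference of -1.10 (SE 0.192). The edgeR adjusted p was 0.0764, or 0.0163 with the naming batch. *Pdha1* stood at 319 ± 74.7 and 175 ± 46.3 CPM and *Dld* at 242 ± 53.8 and 140 ± 25.8 CPM, with edgeR adjusted p-values of 0.0306 and 0.0274 with that term and 0.144 and 0.128 without it. *Cs*, the citrate synthase gene, which draws on the same acetyl-CoA, stood at 534 ± 143 and 276 ± 85.1 CPM (SD, n = 3 each for these genes), with 0.0238 and 0.150 in edgeR. The osteoclast marker sum was also lower in the mutant libraries, and its part in these values was not tested.

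Of 23 genes of the amino acid response, *Asns* included and all tested, 13 lay below 0 and 10 above (median -0.23), where 53.2% of all genes lay below. With genotype alone edgeR called 0, with 6 at an unadjusted p under 0.05 (19.6% of all genes). With the naming batch added 1 rose and 0 fell, against 3.08% and 5.6% of all genes. DESeq2 called 1 higher and 2 lower, against 4.84% and 5.48% of the genes it adjusted. Without overlap, 8 lay lower, *Asns* included, and 1 higher, against 16.9% and 9.91% of all genes. *Atf4*, its transcription factor gene, stood at 233 ± 43.1 CPM in wild-type and 170 ± 26.2 CPM in mutant libraries without overlap (SD, n = 3 each; log2 fold change -0.46, SE 0.182). *Slc3a2*, the shared heavy chain of amino acid carriers, overlapped at 178 ± 46.6 and 225 ± 19.8 CPM. *Cebpb*, a transcription factor gene of the same response, overlapped as well, at 32.4 ± 13.98 and 58.1 ± 18.2 CPM (SD, n = 3 each). It was the gene that rose in the edgeR fit with the naming batch (adjusted p = 0.0191, or 0.256 without that term).

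**Figure D4:**
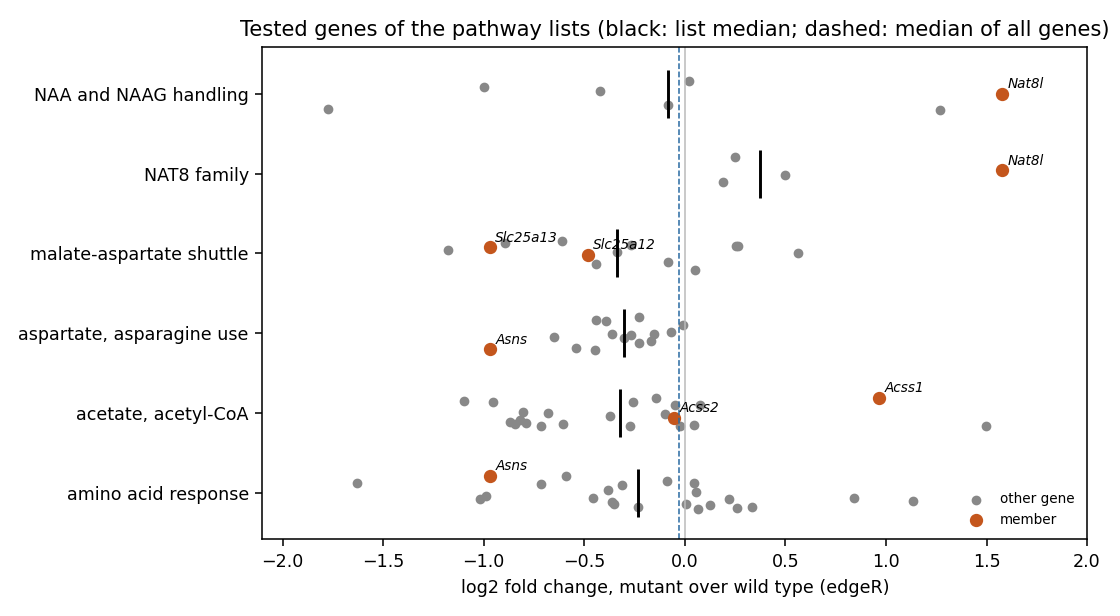
Log2 fold change (mutant over wild type, edgeR) of each tested gene of 6 lists; orange points are the genes under study, black lines list medians (all tested genes of the list) and the dashed line the median of all genes (-0.03). *Nat8l* and *Acss1* lie at 1.58 and 0.97, to the right of most genes of their lists.

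Around *Nat8l*, 13 other genes start within 250 kb, of which 7 were tested and 0 called by edgeR with genotype alone. Once the naming batch was a term 2 were called, *Gm1673* and *Letm1*, against 8.68% of all genes. Of the 7, 1 lay higher and 2 lower without overlap, against 9.91% and 16.9% of all genes. The nearest tested gene, *Gm1673*, starts 12.6 kb upstream on the same strand (chromosome 5, 33983433 to 33985013). It stood at 4.55, 6.04 and 1.68 CPM in libraries 1, 4 and 6 and at 13.6, 13.04 and 8.56 CPM in libraries 2, 3 and 5, without overlap. Its log2 difference was 1.52 (SE 0.489), and its edgeR adjusted p was 0.163, or 0.0279 with that term. Between it and *Nat8l* lies *Gm42847*, on the minus strand, with 3, 4 and 4 counts in wild-type and 17, 7 and 10 in mutant libraries, too few to be tested. *Nelfa*, *Haus3*, *Mxd4* and *Gm15513* overlapped between the genotypes, with log2 fold changes from -0.05 to 0.23. The most distant on the upstream side, *Letm1*, which encodes a mitochondrial ion exchanger, and *Nsd2*, a histone methyltransferase gene, lay lower in all 3 mutant libraries, at -1.05 (SE 0.278) and -0.89 (SE 0.286). Around *Aspa*, the genes with a start within 100 kb were *Trpv1* and *Trpv3*, with at most 8 counts in a library.

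**Figure D5:**
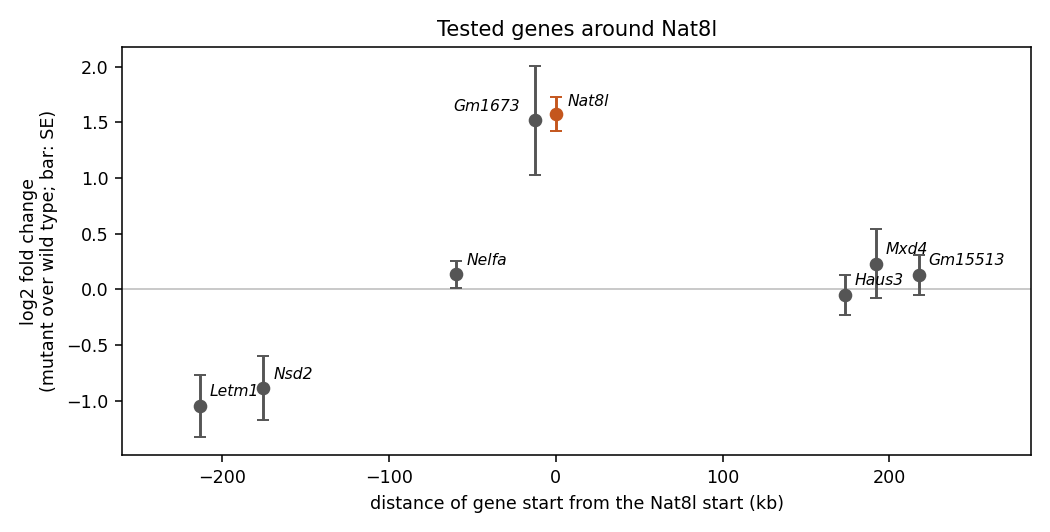
Log2 fold change with SE (edgeR) of *Nat8l* (orange) and the 7 tested genes around it against the distance of their starts in kb, negative towards lower coordinates. *Gm1673*, at 1.52, stands beside *Nat8l* at 1.58, and the other 6 lie between -1.05 and 0.23.

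The genes whose log2 CPM was most like that of *Nat8l* over the 6 libraries, among 13552 with a mean of at least 1 CPM, were *Ccm2* (Pearson r = 0.993), *Zfp36l1* (0.992), *Trappc4* (0.991), *Itga9* (0.990) and *Por* (0.989). With 6 libraries in groups of 3, such values mostly describe a gene that separates the genotypes, and 94 genes reached 0.95. Their genotype differences varied in size, from a log2 fold change of 0.19 for *Trappc4* to 1.81 for *Itga9*. Among the other genes under study r was 0.87 for *Acss1*, -0.21 for *Acss2*, -0.76 for *Asns*, -0.85 for *Slc25a13* and -0.92 for *Slc25a12*, over libraries that share the genotype split and so as a description only.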

How the data were processed

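RNA-seq was made from osteoclast cultures with a stranded mRNA kit and single-end reads of 75 bases, per the labels' protocols. The submitters' processing notes name TopHat2 2.0.13, Bowtie2 2.2.3, SAMtools 0.1.19 and mm10. The program that counted reads, its strand setting and its annotation: not given in the sources used here. The authors deposited raw counts per Ensembl gene. Of 23264 rows, 60 repeats with identical counts were dropped; 99.8% of identifiers were in GENCODE M21. Columns name the genotype but no replicate number. No library repeated another: the smallest chi-square between 2 libraries was 25.7 per degree of freedom.

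Counts were tested in edgeR 4.0.16 (R 4.3.3; TMM, filterByExpr, quasi-likelihood test, Benjamini-Hochberg adjustment over all 14040 genes, threshold 0.05), with genotype as the term; SE was taken as the log2 change divided by the root of F. DESeq2 1.42.0 and other settings were alternatives. The fits were tested on simulated data in which 200 genes were changed and every gene had the same spread. With genotype alone, edgeR recovered 3% of 2-fold and 50% of 4-fold changes, with 0 false calls. With a simulated naming batch and its term, it recovered 42% and 100%, and 5 of 147 calls were false. A gene not called with genotype alone may therefore still differ. A further motif that was searched is not reported here. The members, lists, motifs and alternatives were chosen with earlier results of these data known. Named genes are the 7 members; in each list those past the threshold, up to 4 past it once the naming batch is a term, and the 2 highest; genes starting within 250 kb of *Nat8l* or 100 kb of *Aspa*; and the 5 most like *Nat8l*. *Rimklb*, *Rimkla*, *Folh1*, *Dlat*, *Pdhx*, *Acat1*, *Slc16a7*, *Syn1*, *Rbfox3*, *Acss3*, *Syt1*, *Snap25*, *Ggt7*, *Gss*, *Slc25a22*, the adipocyte and oligodendrocyte markers and the NAT8 family members besides *Nat8l* and *Nat14* were named after their values were seen.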

Additional observations from a re-analysis of the deposited data

How the results depend on the processing

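With genotype alone, 7 genes were called higher and 3 lower. The counts were 433 and 786 once the naming batch was a term, 42 and 46 without scaling beyond the total, 46 and 35 without a filter on low counts, and 622 and 704 in DESeq2. They were 0 and 0 without libraries 2 and 4, an alternative chosen after seeing the data, and 0 to 2 higher and 0 to 1 lower leaving out each library in turn. For the pathway genes besides the 7, 0 calls became 1 higher and 10 lower with the batch term and 1 higher and 13 lower in DESeq2, and stayed at 0 under the others. *Nat8l* stayed above 0 throughout, and past the threshold with all 6 libraries under every alternative with a test, but not with any library left out, where fewer samples are tested (1.55, edgeR adjusted p = 0.241, without libraries 2 and 4). *Acss2* changed sign, to 0.12 without library 1 and without library 4 and 0.26 without library 5, within a range of -0.33 to 0.26 over libraries left out, uncalled throughout; the cause was not tested. *Aspa* entered the fit without a filter on low counts (log2 fold change 0.35, SE 0.974) and DESeq2 (0.39, SE 1.22). It also entered the fits without library 3 (0.51, SE 1.18) and without library 4, where its sign turned (-0.12, SE 0.845). Its depth allowed no comparison. No paired analysis was possible because the columns carry no replicate number.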
